A study of Mus musculus with 2 samples.

Results

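*Ccdc153*, *Tmem212*, *Fam183b*, *Dynlrb2* and *1110017D15Rik* are the genes of motile cilia chosen here, 5 of the 479 genes counted in place in 2 lung sections with small cell lung cancer (SCLC). The rule that chose them is a list of names with no measured value in it, though earlier results of these data were known when the list was drawn up. For each gene, 3 quantities were described: its presence in a cell together with the other members, the number of cells that carried several members, and the transcripts found in neuroendocrine (NE) and secretory cells. In RPR2 mice, loxP-flanked *Rb1*, *Trp53* and *Rbl2* were deleted in the lung by adenoviral Cre given through the trachea at 10 weeks of age. CRPR2 mice carried the same deletions and, in addition, *Cracd* KO in the germline. Both groups thus lack *Rb1*, *Trp53* and *Rbl2* wherever Cre acted, which in these mice includes the NE tumor cells, and the rest of the CRPR2 lung lacks *Cracd* as well. The study names the broadly active CMV promoter for Cre in mice of this design, and the labels of these sections give no promoter. Each genotype had 1 section, and both sections came from a single paraffin block on 1 slide, so genotype, mouse and place on the slide cannot be told apart.

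Motile cilia are the beating hairs of multiciliated airway cells, which move mucus out of the lung. Their core is a ring of microtubules driven by dynein motors, and the transcription factor FOXJ1 switches on many of the genes that build it. *Dynlrb2* encodes a light chain of dynein, and *Ccdc153* a coiled-coil protein of the complex that links neighbouring microtubules and regulates dynein. *Fam183b* encodes a protein of ciliary microtubules, *1110017D15Rik*, also called *Smrp1*, a microtubule-associated protein known from developing sperm, and *Tmem212* a transmembrane protein. Of the other cilia genes searched for, the panel held *Foxj1* and *Riiad1*. SCLC is made of NE cells, and secretory cells line the airways beside the ciliated cells.

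The 250 bases before a RefSeq transcript start of each member are shown because the members were found together in single cells. All 5 members had a match in the RefSeq table (mouse build GRCm38.p6). *1110017D15Rik* has 2 starts, and the start farther downstream is shown, since the window of the other held none of the letters searched. The sequences run 5′ to 3′ in the direction of the gene. Capitals mark GTTGCC or its reverse complement GGCAAC, the letters at the core of the X-box of RFX factors, and TAAACA or its reverse complement TGTTTA, a core of forkhead sites.
Ccdc153, chr9:44240427-44240676, plus strand: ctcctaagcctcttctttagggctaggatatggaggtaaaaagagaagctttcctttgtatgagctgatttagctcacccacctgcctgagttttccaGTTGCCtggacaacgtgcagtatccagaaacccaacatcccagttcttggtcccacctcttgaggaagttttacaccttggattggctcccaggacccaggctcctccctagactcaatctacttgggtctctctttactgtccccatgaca
Tmem212, chr3:27896369-27896618, minus strand: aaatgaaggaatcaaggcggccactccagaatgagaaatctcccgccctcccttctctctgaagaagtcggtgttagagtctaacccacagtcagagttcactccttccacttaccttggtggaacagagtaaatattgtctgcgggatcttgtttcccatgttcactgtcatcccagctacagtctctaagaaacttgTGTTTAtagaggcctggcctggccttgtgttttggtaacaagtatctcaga
Fam183b, chr11:58801961-58802210, minus strand: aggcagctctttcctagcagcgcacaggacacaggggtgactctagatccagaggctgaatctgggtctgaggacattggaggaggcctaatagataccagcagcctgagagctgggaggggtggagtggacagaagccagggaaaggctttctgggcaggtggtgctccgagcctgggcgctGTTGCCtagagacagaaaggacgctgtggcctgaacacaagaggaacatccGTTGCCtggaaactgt
Dynlrb2, chr8:116504765-116505014, plus strand: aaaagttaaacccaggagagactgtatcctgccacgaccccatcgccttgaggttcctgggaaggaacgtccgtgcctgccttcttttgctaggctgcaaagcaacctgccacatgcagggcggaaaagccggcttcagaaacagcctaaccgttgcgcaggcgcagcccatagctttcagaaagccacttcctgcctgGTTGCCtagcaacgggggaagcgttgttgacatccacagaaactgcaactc
1110017D15Rik, chr4:41507765-41508014, minus strand: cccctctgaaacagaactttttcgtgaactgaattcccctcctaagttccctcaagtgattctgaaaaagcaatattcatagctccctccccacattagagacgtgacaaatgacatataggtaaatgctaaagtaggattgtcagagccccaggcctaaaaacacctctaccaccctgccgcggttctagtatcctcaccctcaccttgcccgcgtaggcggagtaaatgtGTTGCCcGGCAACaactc
GTTGCC was searched on both strands, and the letters were chosen after the sequences had been read. They stood before 4 of the 5 members, which have 6 windows, and in 10.4% of the 32851 windows of the same length in the table. A member counted if either of its windows held the letters, while the share of all windows counts each window once. The longer form GTTGCCNNGNNAC, which contains the first motif, stood before 3 members, *Fam183b*, *Dynlrb2* and *1110017D15Rik*, and in 0.566% of all windows. Its first base lay 51 bases before the *Dynlrb2* start and 18 bases before the *1110017D15Rik* start. *Fam183b* had 2 copies, 67 and 16 bases before the start used, and in *Ccdc153* the short form lay 152 bases before the start. On the minus strand the annotated *Fam183b* gene begins at 58802221, so this window and both copies lie inside the gene. The window shown for *1110017D15Rik* also lies inside its gene, which begins at 41517366. The *Tmem212* gene begins at 27896391, so part of its window lies inside it. The *Tmem212* window held neither form, and held TGTTTA 51 bases before the start. TAAACA on either strand was in 12.0% of all windows.

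After cells with fewer than 20 transcripts had been left out, the RPR2 section held 152915 cells and the CRPR2 section 340609, each with a median of 101 transcripts per cell. The 20 negative control probes averaged 2.72 CPM (counts per 1000000 gene transcripts) in the RPR2 section, with a mean of 2.29 CPM for CRPR2, and none exceeded 9.94 CPM. The sections shared 8 cell barcodes. Classes were set by gates on marker genes that include no member. A cell passed a gate with at least 3 transcripts from at least 2 markers of the class, and the NE gate with at least 5 from at least 3. Cells passing the NE gate made up 10.7% of RPR2 cells and 59.9% of CRPR2 cells. Cells that passed several gates (42.2% and 43.1%) were kept apart. "NE-gated" and like names below mean cells that passed that gate alone and were not called ciliated.

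The 5 members were found together in the same cells. In RPR2, 122221 cells had no member, 9896 had 1, 3945 had 2, 3957 had 3, 5241 had 4 and 7655 had all 5. The count thus rose again from 2 members to 5. In CRPR2, the cell numbers were 311913, 18262, 2598, 2309, 2692 and 2835 in the same order, with the lowest at 3 members. *Foxj1*, which was not used for this count, was present in 2.36% of RPR2 cells without a member, 16.7% with 1, 49.1% with 2, 67.0% with 3, 81.4% with 4 and 90.2% with 5. In CRPR2, *Foxj1* was present in 5.14%, 11.9%, 45.6%, 66.7%, 81.4% and 90.2%. From 3 members upward the *Foxj1* shares of the sections lay within their counting intervals, while cells with no member had *Foxj1* more often in CRPR2. *Riiad1* rose likewise, from 3.72% of cells with no member to 79.8% of cells with 5 in RPR2, and the same shares for CRPR2 were 5.06% and 77.8%.

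**Figure D1:**
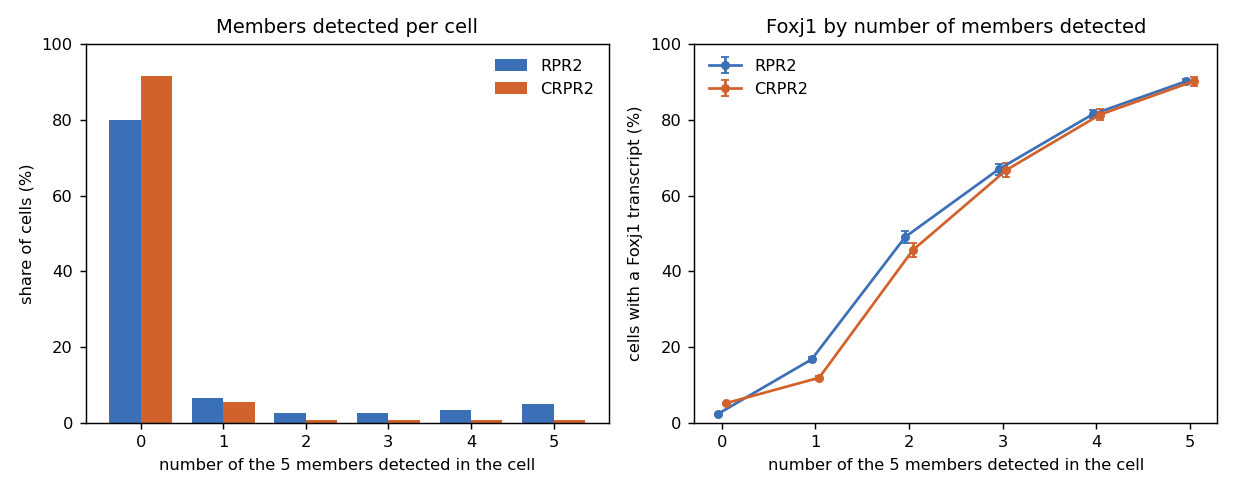
Left, share of cells (%) by the number of members detected, from 0 to 5, in RPR2 (blue) and CRPR2 (orange). Right, share of those cells with a *Foxj1* transcript (%), with exact 95% counting intervals; it reaches 90.2% in both sections at 5 members.

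Each member was detected more often the more of the other 4 members a cell held. *Ccdc153* was found in 1.65% of RPR2 cells without another member, 21.5% with 1, 62.5% with 2, 83.3% with 3 and 94.9% with 4. In CRPR2 the *Ccdc153* shares were 0.505%, 7.08%, 57.2%, 82.3% and 94.0%. The sections thus lay close together at 3 and 4 other members and apart at 0 and 1. For *Tmem212* the order was turned among cells without another member, with 1.42% in RPR2 and 1.66% in CRPR2. *1110017D15Rik* was most often the member that was missing: among cells with exactly 4 members, it was absent from 48.3% in RPR2 and 52.2% in CRPR2. Over the 10 pairs of members, the phi coefficient of detection across cells lay between 0.592 and 0.720 in RPR2, and the CRPR2 pairs lay between 0.366 and 0.618. The pair of *Ccdc153* and *Tmem212* was the highest in RPR2, and *Fam183b* with *Ccdc153* the highest in CRPR2. The lowest pair was *Dynlrb2* with *1110017D15Rik* in both. The cells of a pair share library and depth, and these coefficients are descriptions. A phi coefficient also depends on how common detection is, which differed between the sections. The lower CRPR2 values therefore do not show weaker co-detection within ciliated cells.

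**Figure D2:**
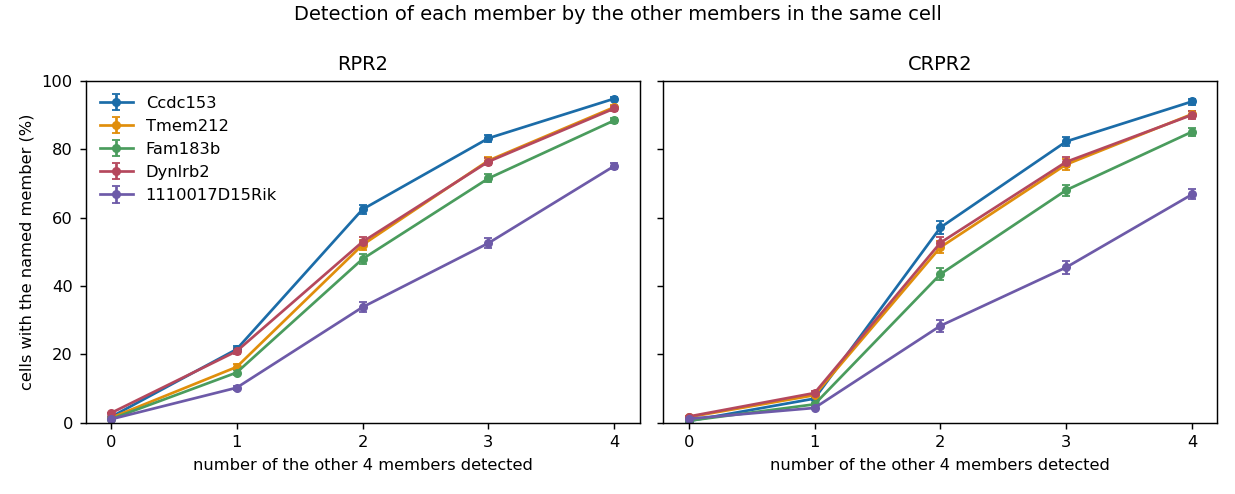
Share of cells with the named member (%, y axis) by the number of the other 4 members detected in the same cell (x axis), with exact 95% counting intervals, in RPR2 (left) and CRPR2 (right). All 5 lines climb in both sections, and *Ccdc153* reaches 94.9% and 94.0% at 4 other members.

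Cells with 1 member differed between sections in which member they held. There were 9896 such cells in RPR2 and 18262 in CRPR2. *Dynlrb2* was the one member in 35.8% of them in RPR2 and 31.9% in CRPR2. *Ccdc153* was the one member in 20.8% and 8.66%, *Tmem212* in 17.8% and 28.8%, and *1110017D15Rik* in 12.7% and 20.4%. Cells with *Tmem212* alone passed the NE gate in 23.9% of cases in RPR2 and 81.6% in CRPR2, and cells with *Ccdc153* alone in 7.79% and 37.1%. Within each section, a lone *Tmem212* therefore lay in NE cells more often than a lone *Ccdc153*. Cells with *1110017D15Rik* alone passed in 22.4% and 76.8%, with *Fam183b* alone in 16.1% and 64.2%, and with *Dynlrb2* alone in 7.57% and 44.8%. Of all cells, 10.7% in RPR2 and 59.9% in CRPR2 passed the NE gate, so lone *Ccdc153* and *Dynlrb2* lay below that share in both sections.

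A cell with at least 3 of the 5 members was called ciliated. By this call, 16853 RPR2 cells (11.0%, exact 95% interval 10.9 to 11.2) and 7836 CRPR2 cells (2.30%, 2.25 to 2.35) were ciliated, a log2 ratio of CRPR2 over RPR2 of -2.26 (-2.30 to -2.22). The RPR2 share was 4.79 times the CRPR2 share. With each cell thinned to 50 transcripts, the shares were 7.85% and 1.39%. The intervals cover counting error only, and with 1 section per genotype no test between genotypes was possible. The share of NE cells moves with this result. Among the 136544 RPR2 cells and 136432 CRPR2 cells that failed the NE gate, 12.2% and 5.39% were ciliated, a ratio of 2.26. The absolute number of ciliated cells was also lower in CRPR2, in a section with a like number of cells outside the NE gate. Those cells are not a tumor-free set, since the study describes non-NE tumor cells in both genotypes, which the gate may leave in. NE markers also remained in cells failing the gate, where the CRPR2 level of 7944 CPM exceeded the RPR2 level of 1038 CPM. How many tumor cells this denominator held was not measured, and their part in the ratio of 2.26 was not tested. How much airway each section held was not measured, and its part in the result was not tested.

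The transcript levels of the members over all cells followed. *Ccdc153* stood at 3348 CPM in RPR2 against 689 CPM in CRPR2 (log2 ratio -2.28, -2.30 to -2.26). *Tmem212* stood at 3099 and 742 CPM (-2.06), *Fam183b* at 2193 and 438 CPM (-2.33), *Dynlrb2* at 2741 and 672 CPM (-2.03) and *1110017D15Rik* at 1484 and 339 CPM (-2.13). All 5 were thus at least 4.08-fold lower in CRPR2, against a median log2 ratio of -0.14 over the 358 genes with at least 100 CPM in a section, of which 24.3% were at least 2-fold lower. In cells that failed the NE gate, the 5 log2 ratios ran from -1.41 for *1110017D15Rik* to -1.08 for *Dynlrb2*, with the sum of the members at 14261 CPM and 6102 CPM. There the median over 358 genes was 0.26, and 6.98% of genes were at least 2-fold lower, among them all 5 members. *Foxj1* was at 2825 and 1088 CPM over all cells (log2 ratio -1.38) and at 3048 and 1470 CPM in cells failing the NE gate (-1.05). *Riiad1* was at 1763 and 755 CPM over all cells (-1.22). Fewer ciliated cells and fewer transcripts per ciliated cell both lower such a sum.

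To measure a member per ciliated cell without choosing the cells by it, each was counted in cells with at least 2 of the other 4. *Ccdc153* stood there at 22887 CPM in RPR2, against 18528 CPM in CRPR2, and was present in 82.9% and 77.7% of cells. *Tmem212* stood at 21133 and 17120 CPM, *Fam183b* at 14699 and 10754 CPM, *Dynlrb2* at 17619 and 14483 CPM, and *1110017D15Rik* at 9625 and 6471 CPM. All 5 were lower in CRPR2, but by much less than over all cells: the log2 ratios were -0.30, -0.30, -0.45, -0.28 and -0.57 in that order. None of the 5 was 2-fold lower. Among the 300 other genes with at least 100 CPM in ciliated cells, the median log2 ratio was 0.13, and 4.0% were at least 2-fold lower. Those genes were counted in cells called by at least 3 of the 5 members, a set of cells unlike that of each member. *1110017D15Rik* had the lowest ratio at each number of other members tried, with a log2 ratio of -0.51 (-0.55 to -0.46) in cells with all 4 others, where *Ccdc153* had -0.18 (-0.21 to -0.15). CPM is scaled by depth, and called cells were deeper in CRPR2, with a median of 123 transcripts against 111 in RPR2. As transcripts per cell with at least 2 others, all 5 were also lower in CRPR2, *Ccdc153* at 2.63 in RPR2 and 2.42 in CRPR2. With all 4 others, *Ccdc153* (3.75 and 3.89), *Tmem212* (3.56 and 3.57) and *Dynlrb2* (2.88 and 2.93) were not lower per cell in CRPR2. *Fam183b* (2.37 and 2.16) and *1110017D15Rik* (1.53 and 1.24) were. Of the called cells, 45.4% in RPR2 and 36.2% in CRPR2 held all 5 members.

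**Figure D3:**
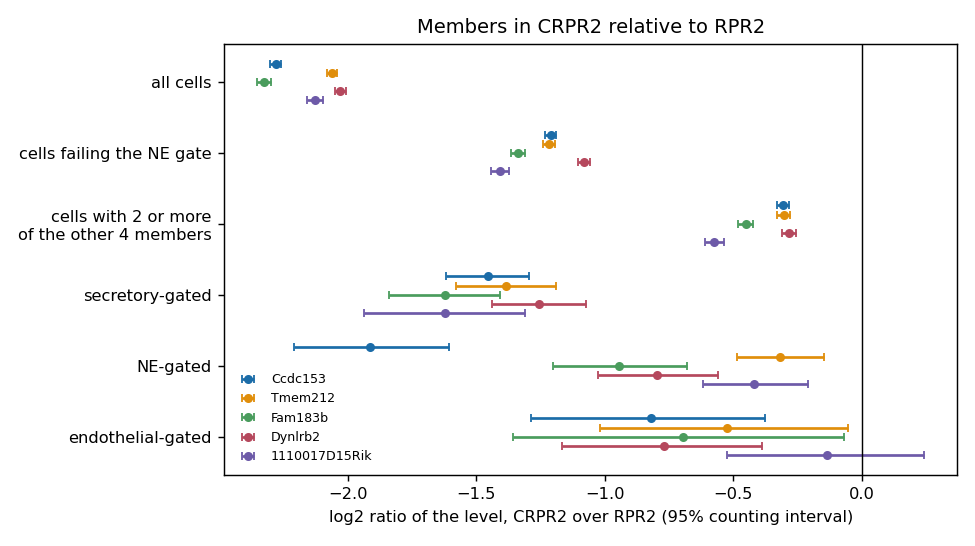
Log2 ratio of each member's level (CPM), CRPR2 over RPR2, with exact conditional 95% counting intervals (x axis), in 6 sets of cells (y axis). The ratios lie between -2.33 and -2.03 over all cells and between -0.57 and -0.28 in cells with 2 or more of the other 4 members.

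The called cells also carried secretory markers. The secretory gate (10 markers, among them *Scgb3a1*, *Scgb3a2*, *Muc5b* and *Reg3g*) was passed by 58.4% of ciliated cells in RPR2 and 84.7% in CRPR2, with a median of 9 and 13 transcripts of the list. Markers of alveolar type 2 (AT2) cells had a median of 3 and 4 transcripts in ciliated cells, and the NE and endothelial lists a median of 0 in both sections. Transcripts of neighbouring cells that fall within a segmented outline, and cells of mixed type, could not be separated here, and their part was not tested. In the other direction, 54.1% of cells passing the secretory gate in RPR2 and 9.70% in CRPR2 were called ciliated.

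Among other genes, detection of *Foxj1* was most like that of the members. Its phi coefficient with the presence of at least 2 members was 0.731 over 152915 RPR2 cells and 0.431 over 340609 CRPR2 cells. *Anxa8*, an annexin, followed with 0.631 and 0.349, then *Riiad1* with 0.584 and 0.330, the trefoil factor gene *Tff2* with 0.397 and 0.326, and *Reg3g*, an antimicrobial lectin of secretory cells, with 0.342 and 0.318. Cells with at least 2 members were 13.6% of RPR2 cells and 3.06% of CRPR2 cells. Since phi depends on such shares, it is not to be compared between the sections. By level, 11 of 254 genes (4.33%) outside the members were at least 10-fold higher in ciliated than in other cells in both sections. *Foxj1* led them, at 19072 CPM in ciliated cells and 599 CPM in other cells in RPR2 (31.8-fold), and at 16646 and 644 CPM in CRPR2 (25.9-fold). The next 9 by the lower ratio of the sections were *Uox*, *Anxa8*, *Rbp2*, *Riiad1*, *Agr2*, *Tff2*, *Timp4*, *Wif1* and *Prom1*. *Agr2* is itself a marker of the secretory gate, as is *Reg3g*. *Rbp2*, a retinol-binding protein gene, was at 239 CPM in ciliated cells and 10.7 CPM in others in RPR2, and at 402 and 7.19 CPM in CRPR2.

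Most member transcripts lay in ciliated cells, and a smaller share did so in CRPR2. A cell is called ciliated by at least 3 of these same members, so a high share in called cells is partly set by the call. Of all transcripts of the 5 members, 89.8% in RPR2 and 75.7% in CRPR2 were in called cells. *Ccdc153* moved least between the sections, from 90.0% in RPR2 to 86.1% in CRPR2. *Tmem212* went from 92.0% to 74.2%, *Fam183b* from 90.8% to 81.0% and *Dynlrb2* from 86.3% to 69.1%. *1110017D15Rik* moved most, from 89.8% to 64.0%. Cells that passed the NE gate and were not called ciliated held 0.526% of *Ccdc153* transcripts in RPR2 and 3.46% in CRPR2, and 1.47% and 24.9% of *1110017D15Rik* transcripts. For *Foxj1* this share was 3.58% and 44.4%, so in CRPR2 more *Foxj1* transcripts lay in such cells than in ciliated cells (42.5%). These shares move with the number of NE cells, whereas a level in CPM is scaled to the transcripts of its class. Whether levels within NE-gated cells vary with the make-up of the section was not tested.

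NE-gated cells held the members at low levels, and at a mix unlike that of ciliated cells. There were 10642 NE-gated cells in RPR2 and 123162 in CRPR2, with a median of 17 and 16 transcripts of the 11 NE markers, among them *Chga*, *Chgb* and *Insm1*. *Tmem212* stood at 299.6 CPM (267.6 to 334.3) in RPR2 and 240.5 CPM (231.8 to 249.5) in CRPR2. *1110017D15Rik* stood at 208 and 155 CPM, *Dynlrb2* at 165 and 95.1 CPM, *Fam183b* at 137 and 71.2 CPM, and *Ccdc153* at 116 and 30.7 CPM. Every member was at most 1.99% of its level in called cells, and each was above the highest negative control probe. The call picks cells by the members and takes them out of the NE-gated class, which widens the gap to called cells. Of NE-gated cells, 7.94% in RPR2 and 5.28% in CRPR2 had a member (4.16% and 2.88% after thinning). Endothelial-gated cells, which do not build motile cilia, had a member in 2.61% and 1.72% (1.48% and 0.939% after thinning), at a median depth of 90 and 87 transcripts against 94 and 91 in NE-gated cells.

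Set against endothelial-gated cells of the same section, the members parted. *Tmem212* was 5.98-fold higher in NE-gated cells in RPR2 (4.87 to 7.37) and 6.91-fold higher in CRPR2 (5.25 to 9.27). *Fam183b* was 4.36-fold and 3.67-fold higher, and *1110017D15Rik* 3.21-fold and 2.64-fold. *Dynlrb2* was 1.93-fold and 1.89-fold higher. *Ccdc153* was 1.77 times the endothelial level in RPR2 (1.40 to 2.25) and 0.833 times in CRPR2 (0.626 to 1.13), so in CRPR2 it could not be told from endothelial cells at this depth. *Foxj1* stood 11.0-fold and 10.3-fold above endothelial cells, at 932 and 866 CPM. Fibroblast-gated cells of RPR2 were above endothelial cells too, 5.58-fold for *Tmem212* (4.52 to 6.91), 7.06-fold for *Fam183b* and 6.26-fold for *Ccdc153*. There *Dynlrb2* was 3.29-fold and *1110017D15Rik* 2.35-fold above. In CRPR2, fibroblast-gated cells were at 2.49-fold, 3.59-fold, 3.37-fold, 1.93-fold and 1.28-fold in the same order. The mix of members in NE-gated cells also differed from that of ciliated cells. In ciliated cells, *Ccdc153* made up 26.1% of member transcripts in RPR2 and 27.2% in CRPR2, and *Tmem212* 24.7% and 25.3%. In NE-gated cells, *Ccdc153* made up 12.5% and 5.2%, *Tmem212* 32.4% and 40.6%, and *1110017D15Rik* 22.4% and 26.2%, against 11.5% and 10.0% in ciliated cells. The *1110017D15Rik* share was not particular to NE-gated cells, since it was 21.8% and 29.4% in endothelial-gated cells. There *Ccdc153* made up 21.9% and 18.4%, and *Tmem212* 16.9% and 17.4%.

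**Figure D4:**
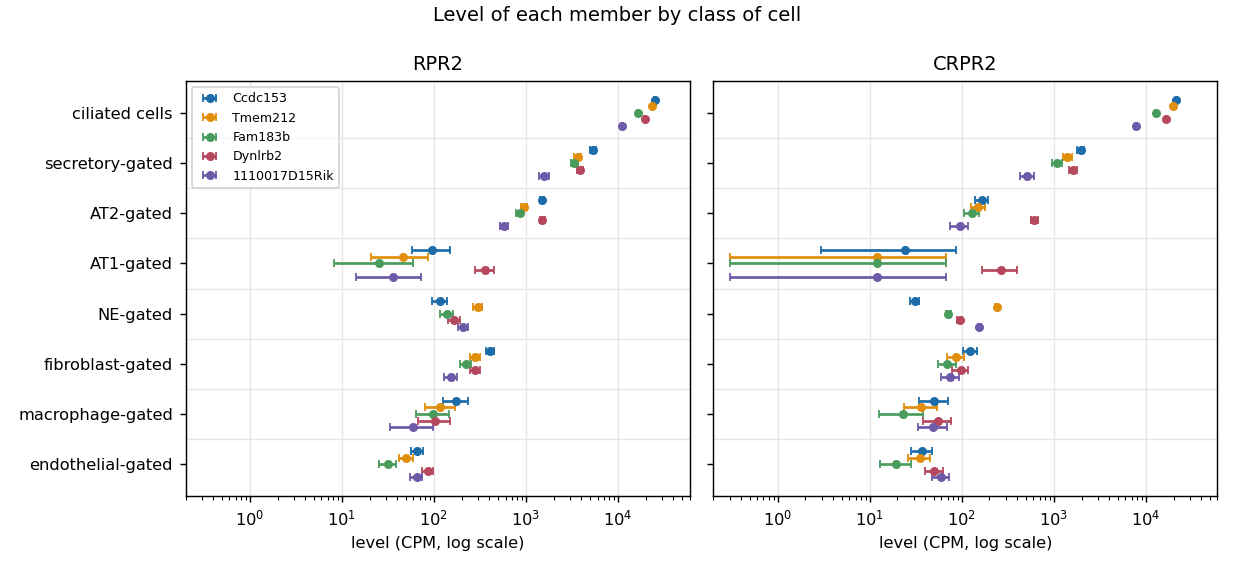
Level of each member (CPM, log scale, x axis) by class of cell (y axis) in RPR2 (left) and CRPR2 (right), with exact Poisson 95% intervals; a member is to be compared across classes, since probes of different genes can differ in efficiency. In AT1-gated cells of CRPR2 *Dynlrb2* stands at 266 CPM while the other 4 members rest on 1 or 2 transcripts each.

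The mix in NE-gated cells became more distinct where other markers were absent. In NE-gated cells with no transcript of the secretory and AT2 lists (5296 in RPR2 and 54690 in CRPR2), *Ccdc153* was at 82.7 and 24.3 CPM and made up 10.3% and 4.23% of member transcripts. *Tmem212* was at 300.6 and 242.4 CPM in those cells and at 298.7 and 239.2 CPM in NE-gated cells that had such a transcript. *Dynlrb2* parted between these sets, with 105 against 218 CPM in RPR2 and 70.6 against 113 CPM in CRPR2. With rising NE marker counts, *Ccdc153* was at 371, 124 and 72.7 CPM in RPR2 cells with 5 to 9, 10 to 19 and 20 or more NE transcripts, and at 44.8, 35.1 and 23.3 CPM in CRPR2. *Tmem212* stayed at 337, 326 and 278 CPM in RPR2 and at 237, 231 and 251 CPM in CRPR2. In CPM, *Tmem212* thus varied less across these cells than *Ccdc153*, which was lowest in the cells richest in NE transcripts. Depth rose as well, with medians of 48, 80 and 129 transcripts in RPR2 and 52, 84 and 128 in CRPR2. As a share of cells, *Ccdc153* went from 1.55% to 0.910% in RPR2 but rose from 0.226% to 0.310% in CRPR2. *Tmem212* rose from 1.61% to 3.55% and from 1.24% to 3.15%. The part of depth was not tested. In NE-gated cells with and without the proliferation genes *Mki67* or *Top2a*, *Tmem212* was at 306 and 287 CPM in RPR2 and at 239.8 and 242.4 CPM in CRPR2.

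Few NE-gated cells held more than 1 member, which is partly set by the class, since it leaves out cells with 3 or more. Of cells passing the NE gate alone, 139 of 10699 in RPR2 and 389 of 123292 in CRPR2 held at least 2 members. The ciliated call took out 57 and 130 of these, and the shares that follow are of the cells left. Of NE-gated cells with *Tmem212*, 95.7% in RPR2 and 94.3% in CRPR2 had a single *Tmem212* transcript. Another member was present in 14.9% of them in RPR2 (11.1 to 19.4) against 5.25% of NE-gated cells without *Tmem212*, and in CRPR2 in 5.36% (4.54 to 6.28) against 3.17%. *Foxj1* was present in 13.9% against 7.65% in RPR2 and in 9.90% against 7.16% in CRPR2. For *Ccdc153* the gap was wider: *Foxj1* was present in 18.2% of NE-gated cells with *Ccdc153* against 7.72% without in RPR2, and in 17.2% against 7.20% in CRPR2. In ciliated cells with *Ccdc153* the *Foxj1* share was 83.2% and 81.7%. These shares were not thinned, and deeper cells more often show any gene. From 5 to 9 up to 20 or more NE transcripts, NE-gated cells with any member rose from 6.56% to 9.37% in RPR2. In CRPR2 they rose from 3.49% to 7.05%, while median depth went from 52 to 128 transcripts. The part of depth in the gaps above was not tested. Over all cells passing the NE gate, 238 of 16371 in RPR2 (1.45%) and 476 of 204177 in CRPR2 (0.233%) met the ciliated call.

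Between the sections, the members in NE-gated cells were lower in CRPR2 to unequal extents. The log2 ratio was -1.91 for *Ccdc153* (-2.21 to -1.61), -0.94 for *Fam183b*, -0.80 for *Dynlrb2*, -0.42 for *1110017D15Rik* and -0.32 for *Tmem212* (-0.48 to -0.15). *Ccdc153* was the 1 member at least 2-fold lower, where 7.89% of 266 genes were, and no member was 2-fold higher, where 7.14% were. The 266 genes had at least 100 CPM in NE-gated cells of a section. *Ccdc153* met that cut in RPR2 only, at 116 CPM against 30.7 CPM in CRPR2, as did *Fam183b* and *Dynlrb2*. Entry through the higher section favours a call of lower in CRPR2, so the call is no support of its own. The median log2 ratio over those 266 genes was 0.0049. With the 57 RPR2 and 130 CRPR2 ciliated cells that passed the NE gate alone kept in, *Fam183b* (2.39-fold) and *Dynlrb2* (2.18-fold) were also at least 2-fold lower. The share over all genes was not computed with these cells kept in. Endothelial-gated cells moved the same way, with log2 ratios from -0.82 for *Ccdc153* to -0.14 for *1110017D15Rik* and -0.57 for the sum (-0.77 to -0.38), beside -0.64 for the sum in NE-gated cells (-0.74 to -0.54). The share of ciliated cells in the section moved with both, and its part was not tested. *Foxj1* differed little in NE-gated cells, with a log2 ratio of -0.11 (-0.20 to -0.01), and *Riiad1* was at 1474 and 781 CPM (-0.92).

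Cells passing the secretory gate alone carried far more of the members, and the difference between the sections depended on which of them were counted. Of all cells, 18197 in RPR2 and 68421 in CRPR2 passed the secretory gate, with or without other gates. A further 6215 and 28545 held 1 secretory transcript fewer than it asks, whatever other gates they passed. Cells passing it alone numbered 6879 and 6171, of which 72.0% and 35.9% met the ciliated call. With the ciliated cells kept in, *Ccdc153* stood at 23461 CPM in RPR2 against 14758 CPM in CRPR2 (log2 ratio -0.67), *Tmem212* at 22227 and 13571 CPM (-0.71), *Fam183b* at 15488 and 8318 CPM (-0.90), *Dynlrb2* at 18774 and 11601 CPM (-0.69), and *1110017D15Rik* at 9563 and 4975 CPM (-0.94). All 5 were lower in CRPR2, and none was 2-fold lower, with no share over all genes computed for this set. Secretory-gated cells are what the call left, 1925 in RPR2 and 3954 in CRPR2, so the members themselves cut this class, and cut it more deeply in RPR2. There *Ccdc153* stood at 5380 and 1962 CPM, *Tmem212* at 3667 and 1406 CPM, *Fam183b* at 3353 and 1089 CPM, *Dynlrb2* at 3880 and 1626 CPM, and *1110017D15Rik* at 1580 and 514 CPM, and 66.1% and 21.5% of cells had a member (55.5% and 19.5% after thinning). All 5 were at least 2-fold lower in CRPR2 in these cells, with log2 ratios from -1.62 for *Fam183b* to -1.25 for *Dynlrb2*, where 13.2% of 348 genes were and the median was 0.24. In those with at least 10 secretory transcripts (998 in RPR2 and 1062 in CRPR2), 2 of the 5 were 2-fold lower, *Tmem212* (2.05-fold) and *1110017D15Rik* (2.13-fold), beside 1.92-fold for *Ccdc153*, 1.87-fold for *Fam183b* and 1.74-fold for *Dynlrb2*. The share of all genes at least 2-fold lower was not computed for that subset, so its count cannot be weighed. With cells of several gates counted, the log2 ratio of the sum went from -1.44 to -2.55. Secretory-gated cells of the sections differed in other markers too, with a median depth of 72 transcripts in RPR2 and 58 in CRPR2, a median of 10 and 6 secretory transcripts, and NE markers at 4287 and 24520 CPM. The mix was close to that of ciliated cells: *Ccdc153* made up 30.1% and 29.7% of member transcripts, *Tmem212* 20.5% and 21.3%, and *1110017D15Rik* 8.8% and 7.8%.

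**Figure D5:**
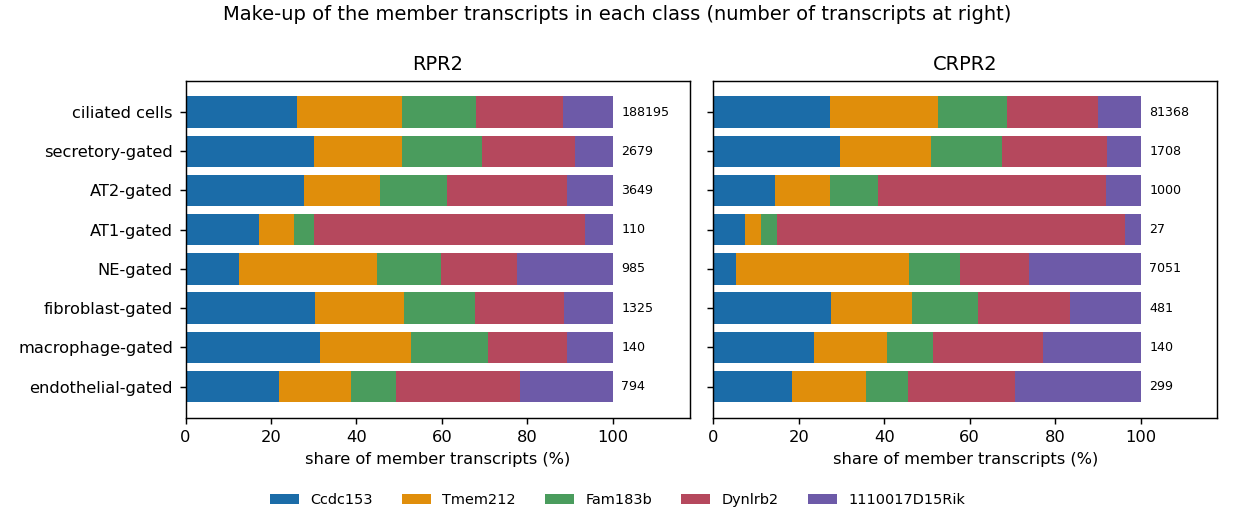
Share of each member (%, x axis) in the member transcripts of each class of cell (y axis) in RPR2 (left) and CRPR2 (right), with the number of transcripts at the right of each bar. Secretory-gated cells match ciliated cells within a few points, NE-gated cells have less *Ccdc153* (12.5% and 5.2%) and more *Tmem212* (32.4% and 40.6%), and AT1-gated cells are mostly *Dynlrb2* (63.6% and 81.5%).

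*Dynlrb2* stood apart from the other members in alveolar type 1 (AT1) cells of both sections and in AT2-gated cells of CRPR2. In cells of the AT1 gate, which flat gas-exchange cells with *Ager* and *Aqp5* pass, it was at 355 CPM in RPR2 (70 transcripts, 277.0 to 449.0) and 266 CPM in CRPR2 (22 transcripts, 166 to 402). This was 4.15-fold (3.13 to 5.45) and 5.29-fold (3.13 to 8.60) the level of endothelial-gated cells. The other 4 members had counting intervals that included the endothelial level in both sections, on 5 to 19 transcripts each in RPR2 and 1 or 2 in CRPR2. In AT2-gated cells *Dynlrb2* was at 1508 CPM in RPR2 against 615 CPM in CRPR2, and *Ccdc153* at 1496 and 165 CPM. In RPR2 *Dynlrb2* was there 17.6-fold above endothelial-gated cells (15.2 to 20.4), among *Fam183b* at 27.2-fold, *Ccdc153* at 23.0-fold, *Tmem212* with an interval of 15.8 to 23.1, and *1110017D15Rik* at 8.95-fold. In CRPR2 *Dynlrb2* was 12.3-fold above (9.61 to 15.8), and the other members between 1.61-fold and 6.60-fold. *Dynlrb2* made up 28.0% of member transcripts in AT2-gated cells of RPR2, near the 28.8% of endothelial-gated cells, and 53.3% in CRPR2 against 25.1%. Its log2 ratio between the sections was -1.29 there (-1.45 to -1.14), and those of the other members ran from -3.18 to -2.61. The call had removed 26.8% of cells passing the AT2 gate alone in RPR2 and 3.14% in CRPR2, and with these kept in the log2 ratio was -2.36 for *Dynlrb2* and ran from -3.15 to -2.98 for the others.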

How the data were processed

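Per the labels and the methods, 1 RPR2 and 1 CRPR2 section were profiled by Xenium In Situ. This method images probes bound to transcripts of a chosen panel. The study reports that the experiment was repeated on other tumor samples with like results, and only the sections named here were analysed. The authors deposited whole-number counts of transcripts per gene and segmented cell, without normalization, with cells outlined by expansion of the nuclei, so transcripts of neighbours can enter a cell. The submitters' processing notes name Seurat 4.4.0. Here, 541 features were read, 479 of them genes. Cells with fewer than 20 gene transcripts were left out (1903 and 2236), no doublet caller was run, and positions were not used. The files held 16313950 gene transcripts in RPR2 and 37348565 in CRPR2. Levels are CPM, gene transcripts summed over a class and scaled to a total of 1000000. For shares across depths, cells were thinned to 50 transcripts, leaving out 15856 and 34059 cells. Intervals (95%) are exact Clopper-Pearson, Poisson or conditional and cover counting error only. No test was run and no p-value was computed. The calculations were tested on simulated data.

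The members, the marker lists and the gates were chosen with earlier results of these data known. Genes other than members were named as the 5 with the highest phi coefficient with the presence of at least 2 members and the 10 with the largest ratio of ciliated over other cells, taking the lower section and at least 100 CPM in ciliated cells, plus the cilia genes on the panel and the markers of the gates. Alternatives changed the call, the gates, the depth and the members used. Subsets of NE-gated and secretory-gated cells by marker counts were added after the data had been seen. The tools were matplotlib 3.10.9, pandas 2.3.3, scipy 1.17.1 and numpy 2.4.6 under Python 3.11.15.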

Additional observations from a re-analysis of the deposited data

How the results depend on the processing

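Every alternative kept the direction of its result, CRPR2 below RPR2, and 17 of the 39 alternatives set at the start moved their result by less than its counting interval. The log2 ratio of the ciliated share (-2.26) was -2.15 with at least 2 members, -2.38 with at least 4, -2.49 after thinning, and -2.35, -2.34, -2.31 and -2.35 without *Ccdc153*, *Tmem212*, *Fam183b* and *Dynlrb2*. That of the level in all cells (-2.16) was -2.12, -2.19, -2.13 and -2.20 without the same members. The share of member transcripts in ciliated cells differed by -14.1 points, CRPR2 minus RPR2, and by -12.8 with at least 2 members, -15.5 with at least 4, -18.3 after thinning, and -18.1, -15.2, -14.4 and -12.4 without *Ccdc153*, *Fam183b*, *Dynlrb2* and *1110017D15Rik*. The median level in ciliated cells (-0.30) was -0.25 with at least 3 of the other 4 members. Both values are from CPM, and transcripts per cell were not among the alternatives. By that measure, *Ccdc153*, *Tmem212* and *Dynlrb2* were not lower in CRPR2 in cells with all 4 others, so the direction of this result depends on the scale used. With cells of several gates counted, NE-gated cells gave -0.80 (from -0.64) and secretory-gated cells -2.55 (from -1.44), and a secretory gate at 10 transcripts gave -0.93. Alternatives chosen after seeing the data moved their results in all 8 cases: within cells failing the NE gate, the ciliated share gave -1.17, the level -1.22 and the share of transcripts -4.42. A call by 3 *Foxj1* transcripts gave -2.12. Leaving out cells with 2 or more members gave -0.46 in NE-gated and -1.73 in secretory-gated cells, and counting the ciliated cells of these gates gave -0.93 and -0.75. The cause of these moves was not tested, beyond the change in cells or genes that each makes. No paired analysis was possible because each genotype had 1 section.

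Counting limits the rarest values, such as the members other than *Dynlrb2* in AT1-gated cells, and the spread between mice was not measured.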
